A study of Mus musculus with 4 samples.

Results

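Single-cell RNA sequencing of E10.5 mouse hearts contained a small set of cells with transcripts of the platelet receptor genes Itga2b and Gp9 or of the platelet chemokine gene Ppbp. A barcode was counted in this set when it held at least 3 unique molecular identifiers (UMIs, counted transcript molecules) of Itga2b, Gp9 and Ppbp together, no Csf1r UMI, and fewer than 15 Tnnt2 and 500 Hbb-y UMIs per 10000 UMIs of the barcode. Barcodes with under 1000 genes, or with mitochondrial UMIs above 10%, were not used. Of 32255 barcodes that passed this filter, 166 (0.515%) met the rule. They are called Itga2b/Gp9/Ppbp cells here. They were chosen on measured values of 6 genes, so the levels of those genes in them, and every comparison of these cells with other barcodes or among their own Pf4 classes, are given as a description with no test.

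The study compared 2 control libraries (replicates 5 and 7) with 2 Tie2-cko libraries (replicates 6 and 8). Both genotypes were homozygous for a floxed Tie2 allele (control label Tie2flfl), and Tie2-cko hearts (label Nfatcre-Tie2flfl) also carried the Nfatc1-Cre allele (knock-in), which is active in the endocardium, the endothelial lining of the heart. By the methods, the strain background was a mixture of 129 and C57/BL6, with embryos of either sex. The dissection took in the whole heart-forming region, and 2 hearts of 1 litter were used per genotype. Control and mutant libraries of a litter shared a sequencing lane, also by the methods. Libraries 5, 6, 7 and 8 held 259775540, 222270938, 169361996 and 210062861 UMIs in 18488, 8877, 11172 and 11899 deposited barcodes, of which 9570, 4992, 8373 and 9320 passed the filters.

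Megakaryocytes are the large bone marrow and embryonic blood cells that shed platelets. They make the fibrinogen receptor from the products of Itga2b and Itgb3, the von Willebrand factor receptor from those of Gp1ba, Gp1bb, Gp9 and Gp5, and they fill alpha granules with proteins such as platelet factor 4 (Pf4) and the Ppbp chemokine. The Itga2b product, CD41, is also known from early blood progenitors of the embryo, and the factors GATA1, FLI1, RUNX1 and NFE2 act in the megakaryocyte lineage.

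The 166 cells were spread very unevenly over the libraries. Library 5 (control) held 85, library 6 (Tie2-cko) 74, library 7 (control) 1 and library 8 (Tie2-cko) 6, so that libraries 5 and 6 held 159 of them (95.8%). The median depth of these cells was 35104 UMIs in library 5, 67841 in library 6, 28594 in library 7 and 26939 in library 8. Libraries 5 and 6 thus stood apart from libraries 7 and 8 in both genotypes, and no label names a reason for this split. Between 29 and 62 barcodes were shared by each pair of libraries, and 1 of the 166 cells, in library 6, had a barcode that also occurred elsewhere.

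The single cell of library 7 went against the platelet label. It held 28594 UMIs, of which 3 were of Itga2b and none of Gp9, Ppbp, Pf4, Plek or Gata1. It did hold UMIs of the endothelial genes Cdh5 (3), Pecam1 (2) and Kdr (2) and of the endothelial and progenitor gene Cd34 (7). The share and the log2 differences of the genes named by genotype are therefore given below with and without this library.

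The genes of the rule and Pf4, which the rule did not use, lie at 3 places in the genome (build GRCm38, GENCODE M21). Ppbp (chr5:90768518-90770063) and Pf4 (chr5:90772435-90773383) are protein-coding neighbours on the plus strand, 2371 bases apart. Gp9 lies at chr6:87778072-87779768 on the plus strand and Itga2b at chr11:102453297-102470122 on the minus strand. The 250 bases before the start of each gene (RefSeq, GRCm38.p6) are printed because these 4 genes define or lead the cells. RefSeq starts Itga2b farther in than GENCODE does, so the Itga2b window lies almost wholly inside the GENCODE gene. Capitals mark AGGAAG or its complement CTTCCT, 1 form of the motif bound by ETS factors such as FLI1. Other forms of the ETS motif were not searched and are not marked. The GATA motif AGATAA or its complement TTATCT, searched on both strands as well, was in none of the 4 windows.
Pf4, chr5:90772185-90772434, plus strand: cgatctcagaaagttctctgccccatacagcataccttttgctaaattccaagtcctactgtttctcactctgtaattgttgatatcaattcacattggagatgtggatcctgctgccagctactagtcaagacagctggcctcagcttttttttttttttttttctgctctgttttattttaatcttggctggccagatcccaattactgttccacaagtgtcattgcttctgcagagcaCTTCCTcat
Ppbp, chr5:90768268-90768517, plus strand: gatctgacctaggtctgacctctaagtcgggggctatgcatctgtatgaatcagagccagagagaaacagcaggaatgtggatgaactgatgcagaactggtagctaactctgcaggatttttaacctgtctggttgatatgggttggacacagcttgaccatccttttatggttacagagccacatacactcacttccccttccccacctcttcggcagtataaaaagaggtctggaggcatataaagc
Itga2b, chr11:102469884-102470133, minus strand: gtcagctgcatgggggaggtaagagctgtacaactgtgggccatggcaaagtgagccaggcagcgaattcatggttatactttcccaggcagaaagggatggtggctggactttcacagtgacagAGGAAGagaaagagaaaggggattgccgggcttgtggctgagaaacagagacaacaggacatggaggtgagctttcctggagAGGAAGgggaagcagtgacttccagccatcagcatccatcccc
Gp9, chr6:87777820-87778069, plus strand: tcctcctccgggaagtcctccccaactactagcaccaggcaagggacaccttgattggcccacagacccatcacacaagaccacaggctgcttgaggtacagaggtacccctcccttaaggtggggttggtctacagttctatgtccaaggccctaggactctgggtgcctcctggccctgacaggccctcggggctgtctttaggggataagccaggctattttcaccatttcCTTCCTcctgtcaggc
This AGGAAG form occurred 2 times before Itga2b, 1 time before Pf4 and 1 time before Gp9, and not before Ppbp. These counts do not tell whether other forms of the ETS motif are present. Among all 32851 promoter windows of this length, 29.5% held AGGAAG on either strand and 10.0% held AGATAA. A match is a description of letters and not a bound site.

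Levels of the marker genes, which the rule raised by construction, were low in most cells and high in a few. The Itga2b level had a median of 0.580 UMIs per 10000 and a maximum of 13.5 in library 5, of 0.519 and 19.7 in library 6, and of 1.87 and 9.02 in library 8, and was 1.05 in the cell of library 7. The Gp9 level had a median of 0.731 and a maximum of 38.8 in library 5, of 0.316 and 37.0 in library 6, and of 1.87 and 25.4 in library 8. Ppbp UMIs were found in 5, 3, 0 and 2 cells of libraries 5, 6, 7 and 8. Most cells thus met the rule through Itga2b and Gp9, and library 8 had the highest medians.

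Among the genes that the rule left free, Pf4 stood out most against the other barcodes. Its mean level was 25.4 UMIs per 10000 in the 166 cells and 0.0263 in all other passing barcodes. Among genes with a mean level of at least 1 in the cells, the next by ratio were Treml1, a receptor of platelet alpha granules (1.30 against 0.00171), Rgs18, a regulator of G protein signalling in platelets (1.02 against 0.00424), and Plek, the platelet protein kinase C substrate pleckstrin (2.73 against 0.0125). The other 16 of the 20 leading genes were Bin2, Fermt3, Srgn, Gm15915, Mpo, Rac2, Myb, Fcer1g, Clec1b, Coro1a, Adgrg1, Rab27b, Nrgn, Gmfg, Prtn3 and Dapp1. Mpo and Prtn3 encode a peroxidase and a protease of granulocyte precursors, and Myb a factor of blood progenitors, so the leading genes did not all belong to the platelet lineage.

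The cells also differed sharply among themselves in Pf4. In library 5, the Pf4 level per cell ran from 0 to 297.1 UMIs per 10000 with a median of 0, and in library 6 from 0 to 1147.2 with a median of 0. In library 8 it ran from 0 to 519.9 with a median of 22.2, and the cell of library 7 had none. No Pf4 UMI was found in 99 cells (59.6%), 1 to 4 were found in 33 (19.9%), and 5 or more in 34 (20.5%). These classes were set after the Pf4 counts had been seen, and few cells lay near the upper limit: 3 had 3 or 4 Pf4 UMIs and 3 had 5 to 7. Of the 33 cells with few UMIs, 28 had exactly 1. In cardiomyocytes, which should lack Pf4, 4.38% of the cells of library 5 and 4.72% of those of library 6 held a Pf4 UMI, against 42.4% and 35.1% of the Itga2b/Gp9/Ppbp cells. Median depths of these cardiomyocytes (Tnnt2 of at least 15 UMIs per 10000) were 28098 and 45765 UMIs. After thinning of each cell to 28500 UMIs, which left out 26 and 4 of the cells, the shares were 25.4% and 22.9%, against 3.78% and 2.54% of cardiomyocytes. Macrophages held a Pf4 UMI in 8 of 29 cells in library 5 (27.6%) and 9 of 20 in library 6 (45.0%), and in 4 of 12 and 4 of 20 after thinning, shares near those of the Itga2b/Gp9/Ppbp cells. Their mean Pf4 levels were 0.720 and 0.640 UMIs per 10000, against 18.6 and 22.8.

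**Figure D1:**
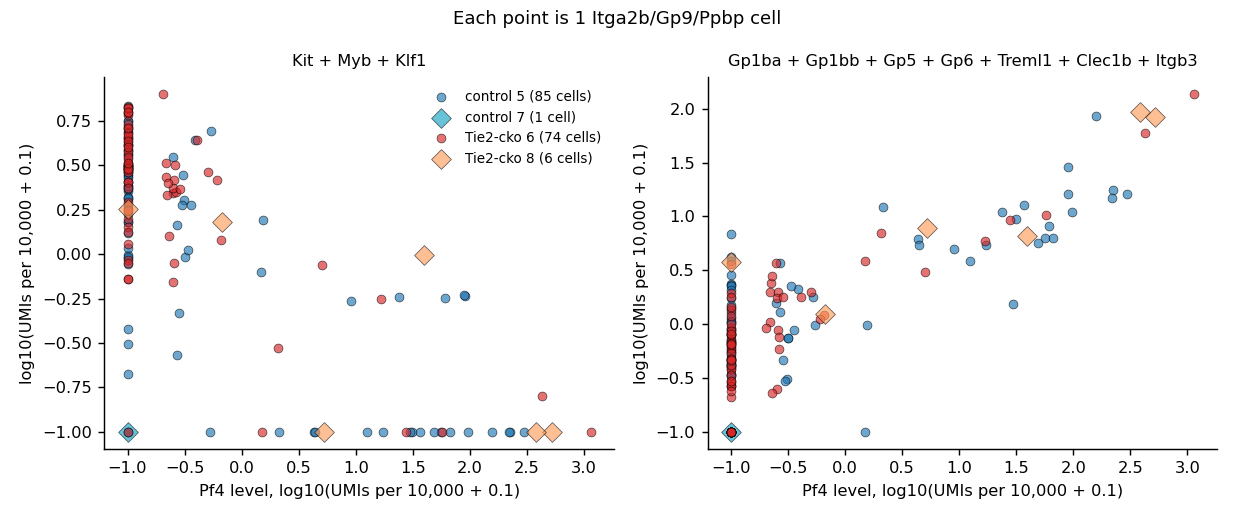
Pf4 level (x axis, log10 of UMIs per 10000 plus 0.1) of each of the 166 Itga2b/Gp9/Ppbp cells against the summed level of Kit, Myb and Klf1 (left) and of 7 platelet receptor genes (right), on the same scale. Colours and symbols mark the 4 libraries, and values of -1 on an axis stand for no UMI. Cells with high Pf4 lie low on the left panel and high on the right panel.

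The cells with 5 or more Pf4 UMIs carried the platelet programme. Mean levels in them were 6.24 UMIs per 10000 for Gp9, a gene of the rule, and 5.20 for Treml1, which the rule left free. They were 7.26 for Clec1b, the podoplanin receptor, 6.88 for Thbs1, an alpha granule protein, and 2.72 for Gp1bb. In cells with no Pf4 UMI the same genes had levels of 0.507, 0.225, 0.118, 0.129 and 0.107. A UMI of Gp1bb, Treml1 or Clec1b was present in all 34 cells with high Pf4, in 28 of 33 with few Pf4 UMIs and in 65 of 99 with none (65.7%). Ppbp, itself a gene of the rule, was found in 10 cells in all (6.02% of 166), and its mean level was 5.51 in the class with high Pf4 and 0 in both other classes. Alox12, the platelet 12-lipoxygenase (2.89 against 0.00517), and Tubb1, the tubulin of the platelet rim (0.750 against 0), followed the same order. Their medians with high Pf4 were 0 for both in library 5 and 0.176 and 0.131 in library 6. In the 4 such cells of library 8 they were 5.66 and 1.75. Tubb1 UMIs were found in 14 of the 166 cells.

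The cells without Pf4 carried progenitor genes instead. Kit, the stem cell factor receptor, had a mean level of 0.623 UMIs per 10000 in them and 0.0589 in the cells with high Pf4. Myb had 1.34 against 0.0765, and Klf1, the erythroid Krüppel-like factor, 0.917 against 0.0467. A UMI of Kit, Myb or Klf1 was present in 94 of 99 cells without Pf4, in 32 of 33 with few Pf4 UMIs and in 11 of 34 with high Pf4. In cardiomyocytes of library 5, 3.36% of cells held a Kit, 1.99% a Myb and 5.60% a Klf1 UMI, against 61.2, 63.5 and 56.5% of the Itga2b/Gp9/Ppbp cells of that library. The erythroid list of 10 genes, which holds Klf1, had 2 genes higher and 1 lower with high Pf4 in libraries 5 and 6. Of all genes, 16.95% were higher and 36.3% were lower. Mpo and Prtn3 had mean levels of 1.495 and 1.26 without Pf4 and of 0.0427 and 0.158 with high Pf4. Gata1, in contrast, was found throughout, in 87 of 99, 30 of 33 and 32 of 34 cells, at mean levels of 0.954, 1.06 and 1.43. A Gata1 UMI was held by 2.30% of cardiomyocytes of library 5 and 2.26% of those of library 6. Kit and Gp1bb occurred together in 48 of the 166 cells (28.9%).

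The same ordering held in libraries 5 and 6 taken singly. In library 5, Myb had a mean of 1.02 UMIs per 10000 over 49 cells without Pf4 and 0.0732 over 22 cells with high Pf4, and Gp1bb had 0.0944 and 1.22. In library 6, Myb had 1.71 over 48 cells and 0.0869 over 8 cells, and Gp1bb 0.0984 and 3.48. Depth ran against the platelet genes and with the progenitor genes, and its part in either was not tested. Median depth was 41024 UMIs without Pf4 and 24518 with high Pf4 in library 5, and 72170 and 46959 in library 6. Across the 166 cells, the Pf4 level had a Spearman rho of -0.590 with the summed level of Kit, Myb and Klf1, of 0.680 with that of the platelet receptor genes and of -0.364 with the UMI count. These are descriptions over cells that share 4 libraries, mostly libraries 5 and 6, and the Pf4 classes follow from the same counts.

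**Figure D2:**
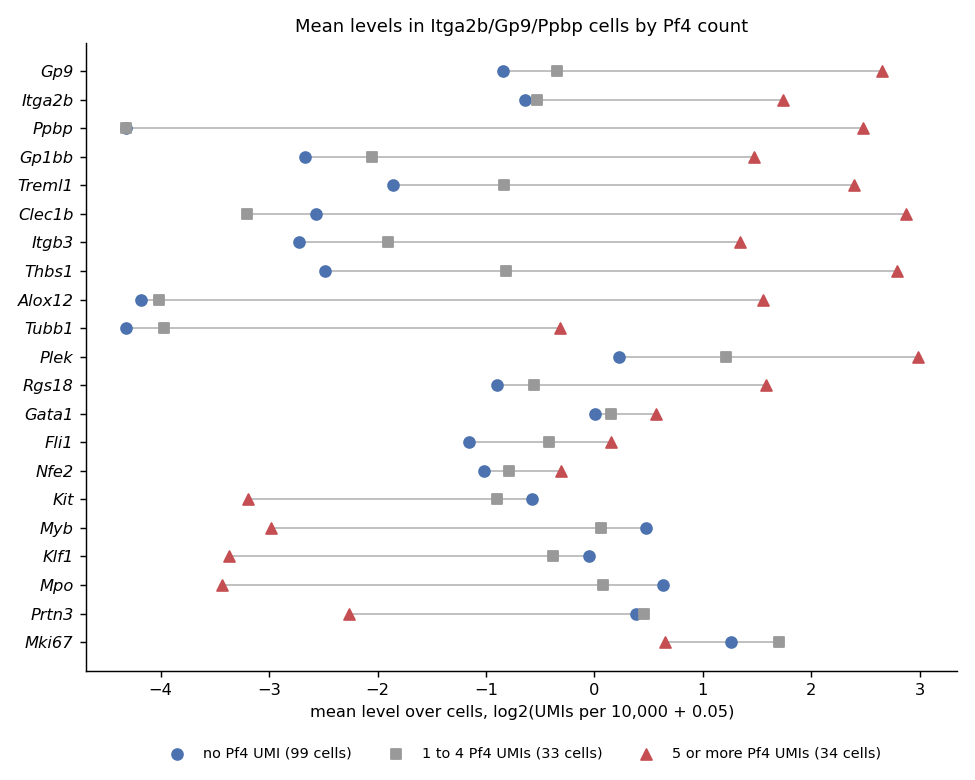
Mean level over cells (x axis, log2 of UMIs per 10000 plus 0.05) of 21 genes in Itga2b/Gp9/Ppbp cells with no Pf4 UMI (99 cells, circles), 1 to 4 (33 cells, squares) and 5 or more (34 cells, triangles). Platelet genes are highest in the triangles, Kit, Myb, Klf1, Mpo and Prtn3 are lowest there, and Gata1 spans 0.954 to 1.43.

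The label of a megakaryocyte and platelet population was checked against 18 megakaryocyte and platelet genes, among them Itga2b, Gp9 and Ppbp, which the rule raised by construction. All 18 had UMIs in the cells and had higher mean levels than in other barcodes in both library 5 and library 6, where 34.6% of the 16176 genes with a UMI in these cells did so. Their summed level was 174.0 UMIs per 10000 in cells with high Pf4, 7.04 with few Pf4 UMIs and 4.43 with none. In the 4 libraries it was 30.7, 34.4, 1.05 and 237.8 in the order 5, 6, 7 and 8. Pf4, its most abundant gene and the one that set the classes, made up 123.8 of the sum in cells with high Pf4. The order of the sums thus follows in part from how the classes were set. All 18 genes were higher with high Pf4 than with none in libraries 5 and 6, beside 16.95% of all genes. This count holds Pf4, Itga2b, Gp9 and Ppbp, and the other genes of the list went the same way.

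Markers of other cells were checked in the same way. Of 10 macrophage genes, C1qb, Cx3cr1 and Adgre1 had no UMI (Csf1r had none by rule), and the highest, Lyz2, reached 0.144 UMIs per 10000. The list's summed level was 0.218, 0.120, 0 and 0.638 in libraries 5 to 8, and 39.5 and 23.5 in the macrophages of libraries 5 and 6 (cells with at least 2 Csf1r UMIs). Of 10 progenitor genes all had UMIs, led by Myb, Kit and Gata2, and 8 of them were lower with high Pf4 than with none in libraries 5 and 6, where 36.3% of all genes were. Against other barcodes, 4 of the 10 were higher in both libraries and 6 were lower, among them Cd34 and Mecom. The 4 of 10 are near the 34.6% of all genes that were higher, and no share of lower genes is given here. The list of 10 mast cell, basophil and neutrophil genes summed to 2.91, 1.77, 0 and 0.274 in libraries 5 to 8. It rested on Mpo and Prtn3, with Cpa3 at 0.128, while Mcpt8, S100a8, S100a9, Prss34 and Ctsg had no UMI. Of 10 endothelial genes, Egfl7 led (1.98), and Cdh5 was found in 7 of the 166 cells. The endothelial list summed to 2.95, 3.38 and 2.84 in libraries 5, 6 and 8 and to 20.6 in the single cell of library 7, beside 20.01 and 17.2 in endothelial cells of libraries 5 and 6. Embryonic globin was compared with cardiomyocytes, which should lack it. The median Hbb-y level was 20.3, 5.11, 14.3 and 1.98 UMIs per 10000 in libraries 5 to 8, and 19.4, 4.37, 7.38 and 2.66 in cardiomyocytes. The mean level of Hbb-bh1, another embryonic globin gene, was 11.8, 10.4, 4.20 and 4.04 in the cells and 5.93, 2.56, 2.81 and 1.20 in cardiomyocytes. Hba-x, an embryonic alpha globin gene, was at 14.0, 10.8, 6.99 and 1.31 and at 16.9, 6.29, 6.39 and 2.79, so globin genes did not all differ the same way. Of 10 erythroid genes, 2 were higher and 8 lower than in other barcodes in both libraries 5 and 6. Of all genes, 34.6% were higher, and no share of lower genes is given here. The 10 cardiomyocyte genes summed to 17.4, 7.63, 28.0 and 12.3, against 594.4 and 560.1 in cardiomyocytes of libraries 5 and 6.

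The functional groups of platelet genes were present to different degrees. Of 13 adhesion receptor genes, 12 were higher with high Pf4 than with none in libraries 5 and 6, where 16.95% of all genes were. The 12 include the rule genes Itga2b and Gp9, and the exception was Cd36, which had 5 UMIs in all. The tetraspanin gene Cd9 had the highest mean of the list (8.88 UMIs per 10000 with high Pf4, 0.543 without). The von Willebrand receptor genes Gp5 and Gp1ba were at 2.42 against 0.185 and at 0.391 against 0.0143, the fibrinogen receptor gene Itgb3 at 2.48 against 0.101, and the collagen receptor gene Gp6 at 0.546 against 0. Of 19 alpha granule genes, 16 were higher, a count that includes Pf4, which set the classes, and the rule gene Ppbp. Others were Clu (3.24 against 0.0920), Vwf (0.8002 against 0.0410) and F5 (0.729 against 0.00538), and the P-selectin gene Selp had only 11 UMIs in the 166 cells.

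Signalling and shape genes were higher with high Pf4 as well. Of 30 genes for agonist receptors and their signalling, 27 were higher with high Pf4 and none was lower in libraries 5 and 6, beside 16.95% and 36.3% of all genes, which also stand beside the counts of this paragraph that follow. Rap1b, the GTPase upstream of integrin activation, had 22.2 against 4.43 UMIs per 10000, Fermt3 (kindlin-3) 6.92 against 1.91, and F2rl2 (the thrombin co-receptor PAR3) 1.71 against 0.0322. P2ry12, the ADP receptor of adult platelets, had 6 UMIs in all. Of 20 cytoskeletal genes, 19 were higher, with Tmsb4x at 165.1 against 20.9 and Myl9 at 5.93 against 0.431. Of 13 genes for dense granules and secretion, 10 were higher, led by Rab27b (4.56 against 0.211), while the vesicular SNARE gene Vamp8 was at 2.38 against 3.81. Of 7 eicosanoid enzyme genes, 4 were higher and none was lower.

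Transcription factor genes went both ways. Of 23, 12 were higher and 7 lower with high Pf4 in libraries 5 and 6, beside 16.95% and 36.3% of all genes. Lmo2, part of the blood-forming TAL1 complex, had the highest mean in the 166 cells (3.99 UMIs per 10000), followed by Zfpm1, the GATA1 cofactor FOG1 (2.37). Fli1 was at 1.06 with high Pf4 and 0.399 without, Runx1 at 0.907 and 0.556, Nfe2 at 0.760 and 0.445, and Gata2 at 0.233 and 0.525.

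Just outside the rule, 85 barcodes met every condition but had 2 marker UMIs. Of these, 3 held 5 or more Pf4 UMIs, and their mean Cdh5 level was 1.25 UMIs per 10000. Of 43 cells with exactly 3 marker UMIs, 1 held 5 or more Pf4 UMIs, and their mean Cdh5 level was 0.145. Of 123 cells with 4 or more, 33 did, and the Cdh5 level was 0.0406. Mean Pf4 was 1.15, 0.333 and 34.2 in the same order. A further 7, 10 and 11 barcodes missed only the Csf1r, the Tnnt2 or the Hbb-y condition, with 0, 3 and 0 of them at 5 or more Pf4 UMIs.

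A single cell of library 6 held 1395 of the marker UMIs, far above the 92 and 159 of the highest cells of libraries 5 and 8. It had 170420 UMIs in all and 8450 detected genes. It held 7263 Pf4 UMIs (69.3% of those of library 6), 922 Ppbp UMIs (92.9%) and 307 Gp9 UMIs (50.3%). It held 1 Kit UMI and no Myb, Klf1 or Csf1r UMI, and it was not among the barcodes with high doublet scores. Without it, the mean levels in library 6 were 17.3 UMIs per 10000 for Pf4 and 0.399 for Ppbp, where they had been 22.8 and 1.13.

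The share of Itga2b/Gp9/Ppbp cells overlapped between the genotypes. It was 0.888% in library 5 (exact 95% binomial interval 0.710 to 1.10) and 0.0119% in library 7 (0.000302 to 0.0665) among controls. In Tie2-cko it was 1.48% in library 6 (1.17 to 1.86) and 0.0644% in library 8 (0.0236 to 0.140). These intervals cover counting error only. Each genotype had 1 library with 74 or more such cells and 1 library with 6 or fewer, so the groups overlapped. Library 6 was above library 5, with intervals that did not overlap, and library 8 was above library 7, with intervals that did, but no label pairs these libraries. The rule asks for a number of marker UMIs, which depth can raise. Median depth of all passing barcodes was 20589.5, 32046.5, 15999 and 18163 UMIs in libraries 5, 6, 7 and 8. The part of depth in the shares was not tested. The means were 0.450% ± 0.620 in controls and 0.773% ± 1.00 in Tie2-cko (SD, n = 2 each), a difference of 0.323 percentage points (two-sided exact permutation test, p = 0.667, where 0.333 is the smallest p that 2 against 2 libraries allow). The difference turned to -0.386 without library 6 and to -0.115 without library 7. Cells with 5 or more Pf4 UMIs gave a difference of -0.0134 (exact p = 1).

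**Figure D3:**
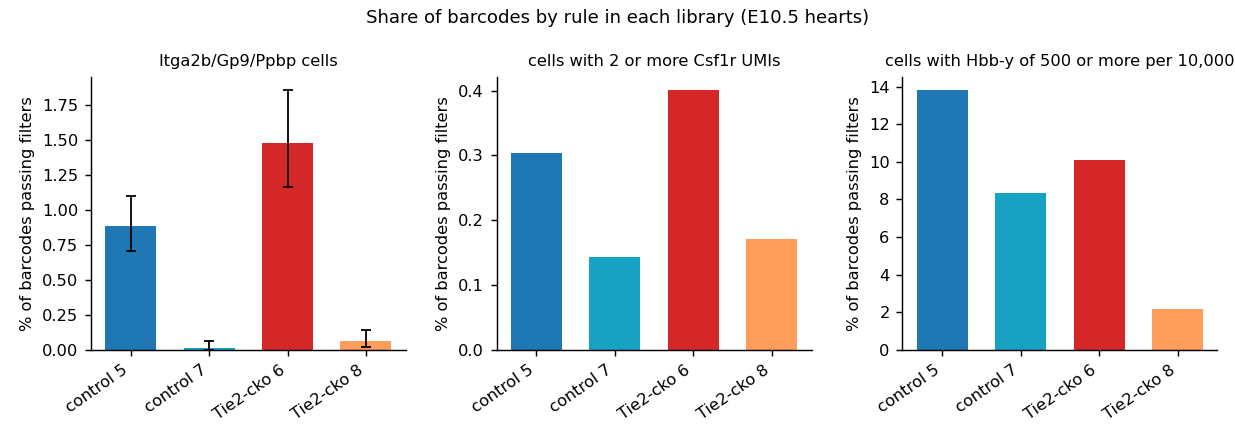
Share of passing barcodes (y axes, percent) in each of the 4 libraries that met the rule for Itga2b/Gp9/Ppbp cells (left, with exact 95% binomial intervals), for macrophages (middle) and for red cells (right). Left and middle, libraries 5 and 6 exceed libraries 7 and 8, and the control and Tie2-cko bars interleave.

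Shares of other cells differed along the same split of the libraries. Macrophages were 29, 20, 12 and 16 cells in libraries 5, 6, 7 and 8 (0.303, 0.401, 0.143 and 0.172% of passing barcodes), and red cells 13.8, 10.1, 8.36 and 2.19%. Barcodes with at least 5 Afp UMIs per 10000, a gene of yolk sac endoderm and liver, numbered 261, 305, 0 and 55. Among blood cells (Itga2b/Gp9/Ppbp cells, macrophages and red cells together), the share of Itga2b/Gp9/Ppbp cells was 5.92, 12.4, 0.140 and 2.65% in libraries 5 to 8. The part of dissected tissue or blood content in these shares was not tested. In whole-heart preparations, fewer cells of a type and less RNA per cell cannot be told apart from a count of barcodes above a UMI threshold.

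Composition within the set also differed between libraries. Cells with 5 or more Pf4 UMIs were 22 of 85 in library 5 (25.9%, exact 95% interval 16.99 to 36.5), 8 of 74 in library 6 (10.8%, 4.78 to 20.2), none of 1 in library 7 and 4 of 6 in library 8 (66.7%, 22.3 to 95.7). The 4 cells of library 8 had Pf4 levels from 5.12 to 519.9 UMIs per 10000. The share with a Kit UMI was 61.2% in library 5 and 82.4% in library 6. After thinning to 28500 UMIs it was 67.8% and 70.0%, without 26 cells of library 5 and 4 of library 6 that had fewer UMIs. The thinned shares are thus not of the same cells.

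Tek, which encodes TIE2, was checked first in the cells where it is deleted. In endothelial cells (at least 3 Cdh5 and Pecam1 UMIs together) the controls had mean levels of 0.781 (library 5) and 1.26 (library 7) UMIs per 10000. The Tie2-cko means were 0.261 (library 6) and 0.259 (library 8), both below both controls. Tek lies at chr4:94739289-94874976 (GRCm38, plus strand), and the deleted part cannot be told from reads of the whole gene. In Itga2b/Gp9/Ppbp cells, Tek had 26, 40, 3 and 2 UMIs in libraries 5, 6, 7 and 8, in 11, 22, 1 and 2 cells. The genotype difference there was -0.80 on the log2 scale (SE 1.06, edgeR quasi-likelihood test, adjusted p = 1.00), and -0.08 without library 7. Of the listed angiopoietin genes, the TIE2 ligand gene Angpt1 was at 0.263 and 0.169 in libraries 5 and 6, Angpt2 had 12 UMIs in all and the angiopoietin-like gene Angptl1 none.

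Between genotypes, counts summed over the cells of each library were compared across all genes with edgeR. Of 8283 genes tested, 34 passed an adjusted p of 0.05 (0.41%), 16 higher and 18 lower in Tie2-cko. All 16 genes that were higher had their highest level in library 8, with 6 cells, and 14 of them had no UMI in the cell of library 7. All 18 genes that were lower had their highest level in that single cell of library 7. Between libraries 5 and 6, 14 of the 16 and 15 of the 18 differed in the same direction. Both libraries were in the fit that called these genes, and no share over all genes tested is given. The counts are thus a description only. Without the 1 cell of library 6 with most marker UMIs, library 6 was above library 5 for 3 of the 16 genes, and the order of these libraries turned for 11, Ppbp, Pf4, Gp1bb and Alox12 among them. DESeq2 called none of the same 8283 genes (84 at an unadjusted p under 0.05, where edgeR had 202). Genotype and the make-up of these 4 sets of cells cannot be told apart.

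The genes that were higher included the 4 platelet genes named by the rule for this comparison. The rule asked for both Tie2-cko libraries on the same side of both controls. Ppbp, per 10000 of the summed counts, was at 0.148 (library 5) and 0 (library 7) in controls and at 1.80 (library 6) and 11.0 (library 8) in Tie2-cko (log2 difference 5.54). Its UMIs chose the cells, so this is a description and no test is given for it, although it is among the 34 genes. The log2 difference was 5.31 without library 7, 3.76 without library 8 and 5.36 without the cell that held 922 of the 992 Ppbp UMIs of library 6. Pf4 was at 13.7 and 0 in controls and 19.0 and 118.4 in Tie2-cko (log2 difference 3.22, SE 0.671, edgeR adjusted p = 0.00118), a small step between libraries 5 and 6 beside that of library 8. Without the 1 cell of library 6 with most marker UMIs, Pf4 in library 6 was at 6.01, below library 5. The log2 difference was 1.36 without library 8 and 2.25 without library 7. Gp1bb had levels of 0.277 and 0 against 0.446 and 5.04 (log2 difference 3.44, adjusted p = 0.00118), and Alox12 0.195 and 0 against 0.600 and 3.92 (3.60, adjusted p = 0.00103). Without library 7 the log2 differences were 3.11 for Gp1bb and 3.33 for Alox12. No p is given without library 7 or without library 8, since 1 library is then left in a group. The spread then comes from the other group alone. Without the same cell of library 6, Gp1bb was at 0.238 and Alox12 at 0.105 in that library, both below library 5, and Ppbp at 0.131, below the 0.148 of library 5. edgeR then gave Alox12 an adjusted p of 1.00 with its Poisson bound on p and of 0.00365 without it, at a log2 difference of 3.43. Pf4 and Gp1bb stayed past the threshold without this cell, although library 8, with 6 cells, was then the only Tie2-cko library above library 5. For Gp1bb and Alox12, the log2 differences without library 8 were 0.90 and 1.78. With libraries 5 and 6 against 7 and 8 as a block, the log2 differences were 3.61 for Pf4 (edgeR adjusted p = 1.00), 1.90 for Gp1bb (1.00) and 2.43 for Alox12 (0.441). The 1 gene called with the block was Ppbp, a gene of the rule. The other 12 genes that were higher were Tpm2, Cd226, Clec1b, Thbs1, Nrgn, Tubb1, Slpi, Cd9, Car1, Pls1, Myl9 and Treml1.

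Of the 18 genes that were lower, 1 (Sparc) was on a list of platelet proteins and none was on the megakaryocyte and platelet list. Akap12, a kinase anchor, was at 0.277 (library 5) and 11.2 (library 7) in controls and at 0.129 (library 6) and 0.124 (library 8) in Tie2-cko (log2 difference -4.66, SE 0.753, edgeR adjusted p = 2.52e-06). Ramp2, the adrenomedullin receptor partner of endothelial cells, was at 0.457 and 11.5 against 0.339 and 0, Hapln1, a matrix link protein, at 0.227 and 7.69 against 0.158 and 0.0622, and the imprinted RNA H19 at 1.84 and 26.9 against 1.61 and 0.311. Gngt2 and Igf2r completed the genes named by the rule, with log2 differences of -4.09 and -3.43. In all 6 the difference between libraries 5 and 6 was small beside the value of library 7. Without library 7, the differences of these 6 genes lay between -0.65 (Igf2r) and -1.28 (Gngt2). With the block, none of the 6 passed the threshold (edgeR adjusted p of 0.253 for Akap12 and of 0.441 or more for the others).

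**Figure D4:**
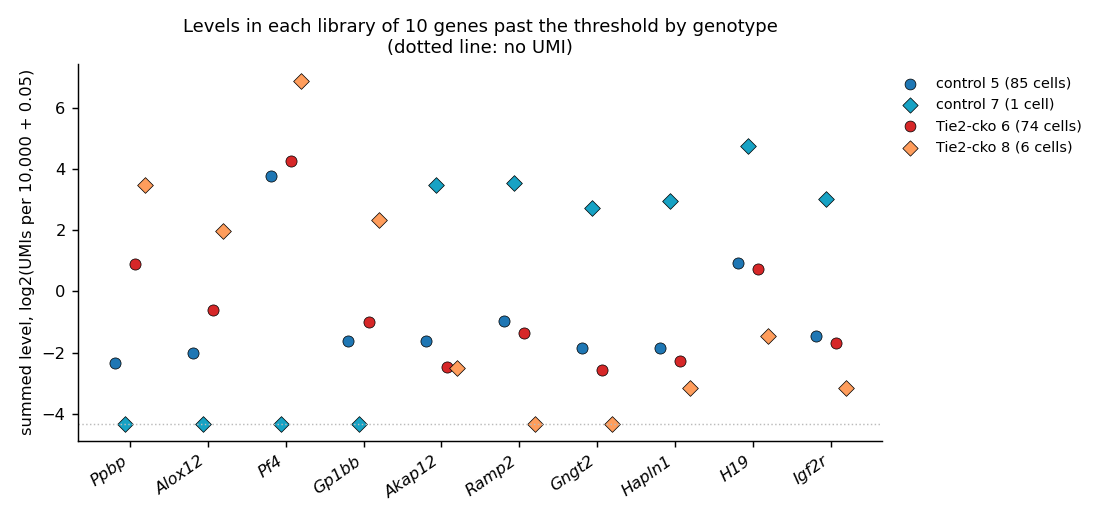
Level of 10 genes past the edgeR threshold (y axis, log2 of UMIs per 10000 of the summed counts plus 0.05) in Itga2b/Gp9/Ppbp cells of each library. Controls 5 and 7 are blue, Tie2-cko 6 and 8 are red and orange, and the dotted line marks no UMI. Libraries 5 and 6 lie close together for most genes, and the points of libraries 7 (1 cell) and 8 (6 cells) lie farthest out.

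By list, 6 of the 17 tested megakaryocyte and platelet genes were higher in Tie2-cko and none was lower (Ppbp, Pf4, Gp1bb, Clec1b, Tubb1 and Treml1). Without Itga2b, Gp9 and Ppbp, which chose the cells, it was 5 of 14, with a median log2 difference of 2.23. The median was 0.09 over all genes tested, and 0.41% of all genes passed the threshold. The cell of library 7 had no UMI of these 5 genes, and no list count without that library is given. Without the 1 cell of library 6 with most marker UMIs, all 5 were lower in library 6 than in library 5. Clec1b was then at 0.337 against 0.797, Tubb1 at 0.0262 against 0.0441 and Treml1 at 0.4996 against 0.759. Of 11 adhesion genes tested, 3 were higher (Gp1bb, Clec1b and Cd9), or 3 of 9 without the rule genes Itga2b and Gp9. Of 16 alpha granule genes, 3 were higher (Pf4, Thbs1 and Ppbp) and 1 lower (Sparc). Without the rule gene Ppbp, 2 of 15 were higher. Of 20 cytoskeletal genes, 2 were higher (Tubb1 and Myl9). Of 9 endothelial genes 1 was lower (Emcn), with levels of 0.466 and 3.85 in controls 5 and 7 and 0.145 and 0 in Tie2-cko. Of 25 agonist receptor and signalling genes 1 was higher (Treml1), and of 5 eicosanoid enzyme genes 1 (Alox12). Of 22 transcription factor genes none passed, with a median log2 difference of 0.42, and none passed in the other lists. Kit, Myb, Klf1 and Gata1 had log2 differences of 0.23, 0.58, 0.31 and 0.30, none past the threshold (edgeR adjusted p = 1.00 each).

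The genotype differences depended on single libraries, as the log2 differences given above show. With 1 library left out, 1 library is left in a group, so no count of genes called is given. The genes tested also changed, to 3652, 3596, 10132 and 9950 without library 5, 6, 7 and 8, where the main fit tested 8283. Cells that held UMIs of at least 2 of the 3 marker genes leave no cell of library 7, and no count is given for them either.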

How the data were processed

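Hearts of E10.5 embryos were profiled with 10x Genomics chemistry in 4 libraries, grouped by genotype from their labels. The authors deposited UMI counts per gene and barcode, not normalized, made with Cell Ranger (6.1.2 by the file headers, another version by the methods) on build mm10 per the submitters' notes. Neither correction for free RNA nor doublet removal is described. The counting of near-identical genes and strand is not given in the sources used here. Level scale was UMIs per 10000. Members and gene lists were chosen with earlier results of these data known. Genes were named by rule: the markers and Tek, the highest of each list, members at 0 and those past the threshold, the 20 leading genes by ratio, and 10 genes by smallest p with both Tie2-cko libraries on one side of both controls. Other listed genes given as examples, such as Gp6, Vwf, F5, Clu, F2rl2 and Cdkn2d, were chosen after their values were seen. A gene of the lists was withheld and is not reported here.

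Doublets were scored with Scrublet (scanpy 1.11.5) and kept. The caller marked 6, 4, 0 and 0 of the cells in libraries 5 to 8. Counts summed per library were tested with edgeR 4.0.16 (quasi-likelihood, TMM, filterByExpr, Benjamini-Hochberg), with DESeq2 1.42.0 as an alternative. The edgeR fit was tested on simulated data. Nothing in the labels says whether libraries came from separate animals, so p-values concern these libraries only, and cells are not replicates. Prior degrees of freedom of the main edgeR fit were infinite, so each gene's spread was taken from a trend over all genes. Its p-values thus do not measure a gene's own spread between the libraries. UMIs count molecules, so levels were not divided by gene length.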

Additional observations from a re-analysis of the deposited data

How the results depend on the processing

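The number of Itga2b/Gp9/Ppbp cells (166) was 251 with at least 2 marker UMIs, 96 with at least 5, and between 81 and 165 with 1 library left out. Cells with at least 5 Pf4 UMIs numbered 34 and cells without any 99, classes chosen after seeing the data. The difference in share between genotypes ranged from -0.386 to 1.03 percentage points with 1 library left out, and was -0.0134 for cells with at least 5 Pf4 UMIs. In 11 other settings it kept its direction, each with an exact permutation p of 0.667, and cells without a Pf4 UMI gave 0.224 (exact p = 1).

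The 34 genes called by genotype became 0 with DESeq2, 1 with libraries 5 and 6 against 7 and 8 as a block, 4 with at least 5 marker UMIs, 0 with UMIs of at least 2 of the 3 markers, and between 0 and 26 with 1 library left out. Of alternatives chosen after seeing the data, cells with at least 5 Pf4 UMIs gave 136, 16 of them shared, with 1 control library left. Cells without a Pf4 UMI gave 13, and 30 remained without the cell of most marker UMIs. Among cells without a Pf4 UMI, the log2 difference became -0.52 for Itga2b and -0.54 for Gp9. With at least 5 marker UMIs it became 1.67 for Tek and 0.28 for Hapln1. With UMIs of at least 2 markers it became 1.75 for Tek, 0.43 for Akap12, 1.19 for Ramp2, 0.91 for Gngt2, 0.88 for Hapln1 and 0.0091 for Igf2r, and with at least 5 Pf4 UMIs 2.75 for Akap12, 3.30 for Ramp2, 2.28 for Hapln1, 0.80 for H19 and 1.36 for Igf2r. The single cell of library 7 is absent under these last 3 settings, so that 1 control library is left. No other log2 difference of the 13 genes followed changed sign. By the methods, control and mutant libraries of a litter shared a sequencing lane, but no label says which libraries these were. The genotypes share no replicate number either, so no pairing by litter was made. The block, with 1 control and 1 Tie2-cko library on each side, follows how the libraries look. With 1 cell in library 7 and 6 in library 8, depth limits every comparison of genotypes, and 1 Pf4 UMI cannot be told from free RNA in a single cell.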

Other observations

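Cell cycle genes were higher than in other barcodes in libraries 5 and 6. All 20 S phase genes and 17 of 20 genes of G2 and mitosis had higher mean levels in the 166 cells than in other passing barcodes of both libraries 5 and 6, where 34.6% of all genes did. The summed S phase level was 20.8, 24.8, 11.2 and 11.3 in libraries 5 to 8, and 13.1, 14.9, 11.9 and 11.7 in other barcodes. That of G2 and mitosis was 42.2, 43.1, 15.7 and 38.8, and 28.8, 31.9, 31.7 and 31.1 in other barcodes. Macrophages of libraries 5 and 6 had S phase sums of 22.7 and 22.5, near those of the cells, and G2 sums of 34.0 and 39.4. Mki67, a marker of cycling cells, was found in 92.8% of the cells at a mean of 2.35 UMIs per 10000, against 1.13 in other barcodes. Of the 20 S phase genes, 16 were lower in cells with at least 5 Pf4 UMIs than in those without in both libraries 5 and 6 and none was higher, while 36.3% of all genes were lower. Mcm3, of the replicative helicase, was at 1.35 and 2.16. Of the 20 genes of G2 and mitosis, 9 were lower and 3 higher. Of 10 genes for D and E cyclins and inhibitors, 5 were higher and 5 lower with high Pf4 in libraries 5 and 6. Of all genes, 16.95% were higher and 36.3% lower. The D-type cyclin Ccnd3 was at 4.55 with high Pf4 and 2.60 without, and Cdkn2d, an inhibitor of its kinases, at 2.88 and 0.530. Cdkn1c, also on the list, was at 1.13 and 3.94. Depth differed between these classes, and its part in the counts was not tested.

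Among the enzymes of haem synthesis, Cpox was at 1.94 UMIs per 10000 in cells without Pf4 and 0.466 in cells with high Pf4, and Alad at 1.43 and 0.489. Of 13 haem and iron genes, 7 were lower with high Pf4 and 2 higher in both libraries 5 and 6, beside 36.3% and 16.95% of all genes, shares not far from these. Of the 6 genes listed for regulators of fetal-type megakaryocytes, Igf2bp1 and Hmga2 led, at 0.963 and 0.948 in the 166 cells. Of the 6, 4 were lower with high Pf4 than without, a count too small to set against the 36.3% of all genes. Against other barcodes of libraries 5 and 6, 5 of the 6 were lower in both and 1 was higher. Of all genes, 34.6% were higher and no share of lower genes is given here, so this count is a description only. Lin28b was at 0.371, against 0.1001 in other barcodes, and Igf2bp3 at 0.588, against 0.770.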
